A study of Mus musculus with 3 samples.

Results

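The immunoglobulin heavy chain locus (Igh) of the mouse lies near the telomeric end of chromosome 12, and all deposited intervals that start and end between 114000001 and 118000000 of build mm9 were taken. They came to 222 of the 21785 intervals in 4 lists: 36 NBS1 peaks of the cell line AH2, 105 intervals of AH2 NBS1 after subtraction, 13 NBS1 peaks of the line R2K.Artm and 68 peaks of AH2 input. Intervals that overlap were joined across lists, which left 175 separate regions. Of these, 140 were in 1 list, 24 in 2 lists and 11 in 3 lists, and none was in all 4.

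The samples were 3 libraries of mouse pre-B cells that had been transformed by the viral oncogene v-Abl. Chromatin immunoprecipitation followed by sequencing (ChIP-seq) with a rabbit monoclonal antibody against NBS1 gave 1 library of AH2 and 1 of R2K.Artm, and chromatin of AH2 that was not selected with an antibody gave the input library. The labels give neither a genotype nor a treatment for these lines, and they do not say whether a line is 1 clone. Whether Igh is rearranged in either line is not given either, and a rearranged allele lacks DNA between the joined segments, so a density or an empty stretch is relative to the reference and not to the DNA of the line. The study's title names breaks made by RAG1/2 outside immunoglobulin genes, and Igh is an immunoglobulin locus at which RAG1/2 is known to cut. Since every group is 1 library, values carry no replicate error and lists were not tested against each other. The 95% intervals given for shares (Wilson) and densities (exact Poisson) cover counting error only and treat neighbouring intervals as independent. The sequencing depth is unknown, so a higher number of intervals in a list is not a measure of more NBS1.

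The Igh locus is assembled by V(D)J recombination. The RAG1/RAG2 recombinase cuts at recombination signals beside a D and a J segment and then beside a V segment. The ends are joined so that the DNA between the segments is removed or inverted. NBS1 works together with MRE11 and RAD50 in a complex that sits on broken DNA ends and activates the kinase ATM there. The constant genes follow the J segments, with an enhancer and the switch region of the μ gene between them, and a 3′ regulatory region of enhancers lies beyond the last constant gene.

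The window was divided at mm9 positions rounded from general knowledge. They gave a centromeric flank (114000001 to 114400000), the constant genes with the 3′ regulatory region (114400001 to 114660000), the J and D segments with the gap up to the first V segment (114660001 to 114800000), proximal V with the intermediate families (114800001 to 115700000), distal V (115700001 to 117250000) and a telomeric flank (117250001 to 118000000). The order of the segments was read from the RefSeq table of build GRCm38, which was used for names and order only. It lists 8 constant genes from Igha to Ighm, 4 J segments, 20 D segments of which 10 are pseudogenes, and 183 V segments of 16 families of which 63 are pseudogenes. The first 32 V segments beside the D segments are named Ighv5-1 to Ighv5-19 along the chromosome, and the last 98, Ighv1-9 to Ighv1-86, follow the last member of any family other than 1 and 8. Tmem121 is the protein-coding neighbour beyond the constant genes, and Zfp386 is the neighbour beyond the V segments.

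Most AH2 intervals of the window lay in the rounded V stretches, though none was assigned to a V segment. In the subtracted list 104 of 105 Igh intervals were in proximal or distal V, 99.0% (95% interval 94.8 to 99.8%), and in AH2 NBS1 32 of 36 were, 88.9% (74.7 to 95.6%). For AH2 input the share was 51 of 68, 75% (63.6 to 83.8%), and for R2K.Artm NBS1 it was 7 of 13, 53.8% (29.1 to 76.8%). These V stretches take up 2.45 Mb of the 4 Mb window. The constant region, the J and D segments and the centromeric flank held 0 of the 105 subtracted intervals each, and a count of 0 still permits up to 2.86% per stretch (3 counts of the list's Igh total).

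**Figure D1:**
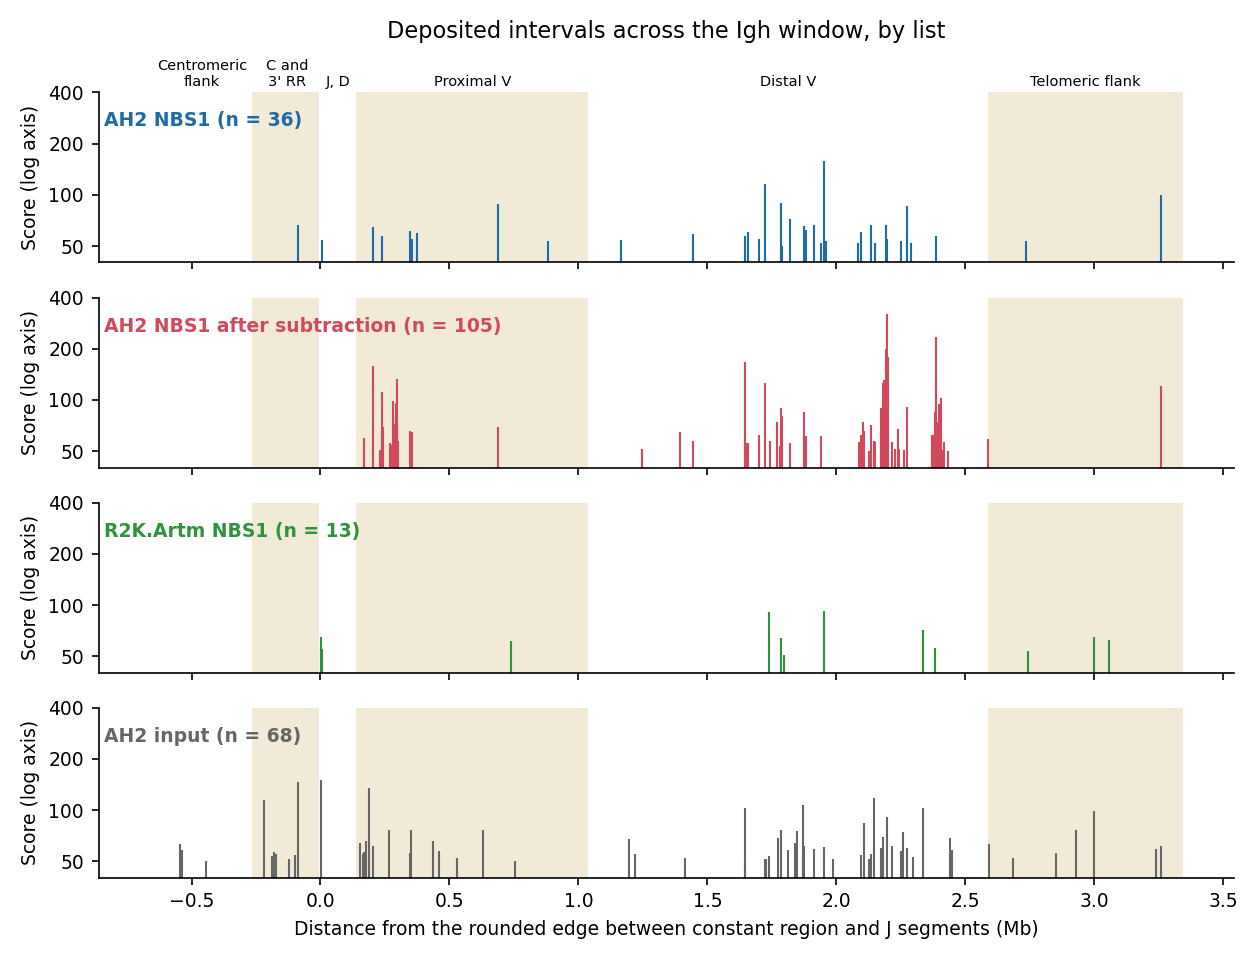
Each vertical line is 1 deposited interval of the Igh window, at its distance in Mb from the rounded edge between constant region and J segments, with its caller's score on a log axis and one panel for each list; shading marks alternate subloci, and 3' RR is the 3′ regulatory region. The 105 subtracted intervals stand in groups within proximal and distal V, the 3 R2K.Artm peaks of the J and D stretch stand beside the origin, and the 68 input peaks also spread over the constant region.

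In distal V, the part of the locus farthest from the D segments, the subtracted list had 83 intervals, or 53.5 per Mb (42.7 to 66.4). AH2 NBS1 had 25 peaks there, 16.1 per Mb (10.4 to 23.8), AH2 input had 37, 23.9 per Mb (16.8 to 32.9), and R2K.Artm NBS1 had 6, 3.87 per Mb (1.42 to 8.43). On the rest of chromosome 12 the same lists had 0.509, 1.73, 4.08 and 1.11 intervals per Mb. The Poisson intervals in distal V stood above these values in all 4 lists, input among them. Many subtracted intervals were close neighbours: with intervals under 10 kb apart merged, 21 of its 28 merged Igh intervals were in distal V.

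Proximal V, which holds the segments next to the D cluster, had 21 subtracted intervals, 23.3 per Mb (14.4 to 35.7). It had 7 AH2 NBS1 peaks, 7.78 per Mb (3.13 to 16.0), 14 input peaks, 15.6 per Mb (8.50 to 26.1), and 1 R2K.Artm peak, 1.11 per Mb (0.0281 to 6.19). Of the V intervals of each list, the distal share was 79.8% (71.1 to 86.4%) for the subtracted list, 78.1% (61.2 to 89.0%) for AH2 NBS1, 85.7% (48.7 to 97.4%) for R2K.Artm NBS1 and 72.5% (59.1 to 82.9%) for input. Distal V makes up 63.3% of the V length. The share exceeded this in each list, but its interval excluded it for the subtracted list only, whose intervals are the most crowded. The shares of the 4 lists had overlapping intervals.

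**Figure D2:**
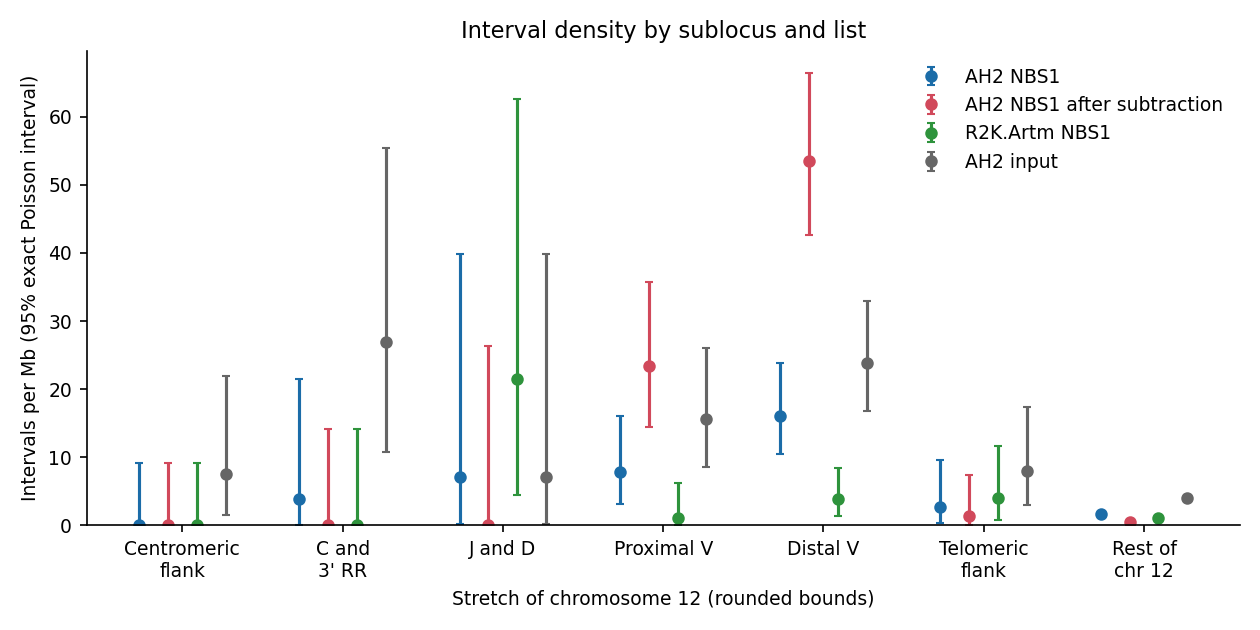
Points give the number of intervals per Mb in each rounded sublocus and on the rest of chromosome 12, and bars give 95% exact Poisson intervals, for the 4 lists in separate colours. The subtracted list reaches 53.5 per Mb in distal V, where input is at 23.9 per Mb. Input is at 26.9 per Mb in the constant region, where the subtracted and R2K.Artm lists hold no interval.

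Within distal V the intervals were again uneven. The 800 kb from 116300001 to 117100000, chosen after the counts in bins of 100 kb had been seen, make up 51.6% of distal V. They held 79 of its 83 subtracted intervals, 23 of its 25 AH2 NBS1 peaks, all 6 of its R2K.Artm peaks and 31 of its 37 input peaks. The other 750 kb of distal V held 4, 2, 0 and 6 in the same order. Because the stretch was picked from these counts, its high shares are a description only. The fullest 100 kb bin of the subtracted list, from 116800001, had 30 intervals beside 3 AH2 NBS1 peaks, 6 input peaks and no R2K.Artm peak. The next fullest, from 117000001, held 21, with 1 AH2 NBS1 peak and 1 R2K.Artm peak in the same bin and no input peak. The 3 fullest bins held 61.0% of the subtracted Igh intervals, against 46.2% for R2K.Artm NBS1 (6 of 13), 27.8% for AH2 NBS1 and 26.5% for input.

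The longest part of the rounded V stretches without a subtracted interval crossed the edge between proximal and distal V. It ran for 559 kb, from 115347287 to 115906714, and held 2 AH2 NBS1 peaks, 1 R2K.Artm peak and 3 input peaks. The longest such stretch of input, 439 kb from 115414764 to 115854157, lay within it and held 2 AH2 NBS1 peaks. The longest of AH2 NBS1, 313 kb from 115034258 to 115347150, was inside proximal V and held 4 input peaks, and the next, 283 kb from 115543023 to 115825686, crossed the edge and held no interval of any list. R2K.Artm NBS1 had no V peak for 998 kb from 115398393, where AH2 NBS1 had 7 peaks and input had 8, and none for 386 kb from 116610652, where the subtracted list had 43 intervals, AH2 NBS1 10 and input 15. It also had none from the proximal V edge at 114800001 to its first V peak at 115398229. That part is not among the gaps, which were measured between 2 intervals of a list. A stretch without a peak is one where the caller's limit was not reached, and the files do not show whether NBS1 was absent.

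The rounded stretch of the J and D segments, at which RAG1/2 begins recombination, held 3 R2K.Artm peaks, 1 AH2 NBS1 peak and no subtracted interval. The R2K.Artm peaks were at 114662515 to 114662995 (score 65.0), 114663165 to 114663477 (54.2) and 114665491 to 114665962 (55.3). They made up 23.1% of its Igh peaks (8.18 to 50.3%) and lay within 3448 bp of each other. At 481, 313 and 472 bp they were the widest of the 13 R2K.Artm peaks in the window. All 5 intervals that any list has between 114660001 and 114800000 stood within 3631 bp, close to the rounded edge with the constant region. By general knowledge of mm9 that places them at the J segments and the intron before the μ gene, which holds the enhancer and the switch region, but the rounded bounds cannot separate these.

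AH2 NBS1 had a single peak in the J and D stretch, 143 bp wide at 114666003 to 114666145 with a score of 54.4. It stood 40 bp beyond the third R2K.Artm peak and did not overlap it, and it was not in the subtracted list. AH2 input had 1 peak there, at 114662663 to 114663336, with a width of 674 bp and a score of 150, the widest and highest-scoring of the 68 input peaks in the window. It overlapped the first and the second R2K.Artm peak, whereas the third lay 2154 bp from it. So 2 of the 3 R2K.Artm peaks coincided with DNA that was also called without the antibody, though in the other line, since no R2K.Artm input was analysed here. The rest of the stretch, over the D segments and up to the first V segment by the rounded bounds, had no interval of any list.

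The stretch of the constant genes and the 3′ regulatory region held mostly input peaks. AH2 input had 7 there, 26.9 per Mb (10.8 to 55.5), close to its 23.9 per Mb (16.8 to 32.9) in distal V. The density was above its value in proximal V but with overlapping intervals, so the stretch was not set apart from the V stretches in input. The highest was at 114573525 to 114573901 (score 147), followed by 114440347 to 114440473 (115) and 114479666 to 114479891 (56.6). AH2 NBS1 had 1 peak, 73 bp wide at 114574209 to 114574281 (66.3), which lay 307 bp from the highest of these input peaks without overlapping it and was not kept after subtraction. R2K.Artm NBS1 had 0 of 13 in this stretch, which allows a share of up to 23.1%, so at this number a share like that of input (7 of 68, 10.3%) would not have been detectable.

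The flanks of the locus served as the nearest sequence without antigen receptor segments. The centromeric flank held 3 input peaks, with scores of 63.3, 58.0 and 50.3, and no NBS1 peak of either line. The telomeric flank held 2 AH2 NBS1 peaks, 1 subtracted interval, 3 R2K.Artm peaks and 6 input peaks, or 2.67, 1.33, 4.00 and 8.00 per Mb. The AH2 NBS1 peak at 117916613 to 117916840 (score 100) was also the subtracted interval of this flank (121) and overlapped an input peak. The other AH2 NBS1 peak there, at 117393766 to 117393879 (53.6), was in no other list. Of the R2K.Artm peaks, 117660488 to 117660629 (64.9) overlapped the highest input peak of the flank (98.3; the next, at 117590421, had 76.1 and overlapped none), and those at 117718529 (62.2) and 117401597 (53.5) overlapped none.

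NBS1 peaks of AH2 and R2K.Artm coincided at 1 place in Igh. It was 116610422 to 116610651 in distal V, where the AH2 peak (116610445 to 116610607, score 158) was the highest of the 36 and the R2K.Artm peak (92.8) the highest of the 13. An AH2 input peak (60.4) overlapped both. The shared share was 1 of 36 AH2 NBS1 peaks, 2.78% (0.492 to 14.2%), against 32.8% over the whole AH2 NBS1 list, and 1 of 13 R2K.Artm peaks, 7.69% (1.37 to 33.3%), against 52.0% over the whole R2K.Artm list. In the immunoglobulin kappa window on chromosome 6 (67000001 to 71000000), which holds a light chain locus, it was likewise 1 of 24 AH2 NBS1 peaks, 4.17% (0.739 to 20.2%).

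Overlap with R2K.Artm went with the score in the AH2 NBS1 list, and Igh peaks scored low in it. Only 7 of the 36 exceeded the list's median score of 67.6. Among peaks at or under that median, 0 of 29 in Igh overlapped R2K.Artm (which allows a share of up to 10.3%), against 251 of 2574 outside Igh, 9.75% (8.66 to 11.0%), so the Igh value was not distinguishable at this number. Among peaks over the median it was 1 of 7 in Igh, 14.3% (2.57 to 51.3%), against 1453 of 2591 outside, 56.1% (54.2 to 58.0%). Here the intervals of the Igh share and the outside share did not overlap, on only 7 Igh peaks. Whether the score accounts for the low sharing in Igh was not tested. Of the R2K.Artm peaks in distal V, 2 of 6 were under 2 kb from an AH2 interval without touching it: 116446523 to 116446712 lay 1856 bp from an AH2 NBS1 peak that was kept after subtraction, and 117041107 to 117041308, named here for this distance after its value was seen, lay 169 bp from an interval found after subtraction.

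Coincidence with input differed less from the rest of the lists when peaks were not divided by score. Input peaks overlapped 11 of 36 AH2 NBS1 peaks in Igh, 30.6% (18.0 to 46.9%), beside 28.9% of the whole list, and 7 of 13 R2K.Artm peaks, 53.8% (29.1 to 76.8%), beside 38.7%. In the other direction 11 of 68 Igh input peaks overlapped AH2 NBS1, 16.2% (9.28 to 26.7%), beside 12.5%, and 6 of 68 overlapped R2K.Artm, 8.82% (4.11 to 17.9%), beside 10.6%. At or under the median score, 7 of 29 AH2 NBS1 peaks in Igh overlapped input, 24.1% (12.2 to 42.1%), against 9.79% (8.70 to 11.0%) outside Igh. The R2K.Artm peaks that overlapped input, besides those in the J and D stretch, the shared peak and the telomeric one, were 116396877 to 116397099 (90.8), 116446523 to 116446712 (64.4) and 116996385 to 116996601 (71.7), all in distal V.

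After subtraction, Igh peaks of AH2 NBS1 were retained more often than the rest of that list. Of the 36, 24 were in the subtracted list with the same start and end, 66.7% (50.3 to 79.8%), against 17.7% of all AH2 NBS1 peaks. The kappa window had much the same share, 15 of 24, 62.5% (42.7 to 78.8%). By sublocus 5 of 7 proximal V peaks, 18 of 25 distal V peaks, 1 of 2 in the telomeric flank and none of the 2 in the constant, J and D stretches were retained. Among peaks at or under the median score 18 of 29 in Igh were retained, 62.1% (44.0 to 77.3%), against 23.9% (22.3 to 25.6%) outside, and over the median 6 of 7, 85.7% (48.7 to 97.4%), against 10.9% (9.78 to 12.2%).

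The peaks that were retained included those that coincided with input. All 10 AH2 NBS1 peaks of Igh that overlapped input but not R2K.Artm were in the subtracted list (95% interval 72.2 to 100%), against 76 of 405 such peaks in the whole list, 18.8% (15.3 to 22.9%). The title of the subtracted file names R2K.Artm NBS1 and input as what was taken away, and its header names R2K.Artm NBS1 only. The 10 were at 114863504, 115008390, 116306219, 116384368, 116533322, 116756978, 116795704, 116855118, 116934082 and 117916613. The peak in all of AH2 NBS1, R2K.Artm NBS1 and input, at 116610445, was not retained. Of the 25 peaks that overlapped neither list, 14 were retained, 56.0% (37.1 to 73.3%), against 27.0% (25.5 to 28.6%) of such peaks in the whole list. Among the 12 that were not retained, 11 overlapped no other list. They had scores from 51.7 to 66.8.

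The 24 retained peaks stood at different places in the 2 score orders. All 24 were over the median score of the subtracted list (55.4), and 6 were over the median of the AH2 NBS1 list (67.6). In the whole of the 922 retained peaks 62.7% were over the first median and 31.3% over the second. The scores are those of the authors' caller, and they were set only against their own list. The 5 highest in the subtracted list were 116855118 to 116856009 (319.98), 117046844 to 117047317 (235), 116850938 to 116851361 (199), 116306219 to 116306641 (167) and 114863504 to 114863926 (157). In the AH2 NBS1 list these had 54.6, 57.2, 66.2, 56.9 and 64.7, all under its median. They were 892, 474, 424, 423 and 423 bp wide, the 5 widest of the 24. By contrast, the highest AH2 NBS1 peaks of distal V that were retained, 116384368 to 116384513 (115.5) and 116443845 to 116443976 (88.9), were 146 and 132 bp wide and had 126 and 89.8 in the subtracted list.

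Most Igh intervals of the subtracted list were not AH2 NBS1 peaks at all. Of the 105, 81 overlapped no AH2 NBS1 peak, and the 24 that did made up 22.9% (15.9 to 31.8%), against 61.9% of the whole list. The share was 5 of 21 in proximal V and 18 of 83 in distal V, so it was alike in both within counting error. In the kappa window 15 of 18 did, 83.3% (60.8 to 94.2%), and on the rest of chromosome 12 43 of 58 did, 74.1% (61.6 to 83.7%). The 81 intervals lay between 20 and 146881 bp from the nearest AH2 NBS1 peak, with a median of 10488 bp. Of these, 4 were within 1 kb and 41 were more than 10 kb away.

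These 81 intervals had a lower median score than the 24 retained peaks and a somewhat greater median width. Their scores ran from 50.1 to 178 with a median of 62.3, against 75.7 for the 24 retained peaks. A score of 100 was reached by 10 of the 81 and by 8 of the 24. Their widths ran from 81 to 496 bp with a median of 166 bp, against 149 bp for the 24 retained peaks. The highest was at 116859440 to 116859935 in distal V (178), and the highest in proximal V was at 114954759 to 114955033 (132). Input peaks overlapped 5 of the 81, compared with 10 of the 24. Over all 105 that came to 15, 14.3% (8.85 to 22.2%), against 6.18% of the whole list and 5.56% (4.47 to 6.90%) outside Igh. Read from the side of input, 15 of the 68 Igh input peaks overlapped a subtracted interval, 22.1% (13.8 to 33.3%), against 0.765% of all input peaks. The subtracted list itself had 26.25 intervals per Mb in Igh and 0.509 on the rest of chromosome 12. Whether this density accounts for the higher share was not tested. Of these 15, 12 were in distal V, near the 79.0% of all 105 subtracted intervals. In the kappa window 0 of 18 subtracted intervals overlapped input (0 to 17.6%), and 0 of 20 input peaks overlapped a subtracted interval (0 to 16.1%). No R2K.Artm peak overlapped any of the 105, which allows a share of up to 2.86%, where the whole list has 0.672%, and likewise 0 of the 13 R2K.Artm peaks met a subtracted interval, where the whole R2K.Artm list has 0.313%. R2K.Artm NBS1 was taken away to make this list, so low overlap in both directions follows from how it was made and says nothing about Igh.

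Dense runs, of 5 or more intervals each under 10 kb from the next, held 77 of the 105 subtracted intervals, against 5.51% of the whole list. That whole-list share stands for 82 intervals in 8 runs, and it includes the 77 intervals and 7 runs of Igh. In AH2 NBS1, R2K.Artm NBS1 and input no interval of the Igh window was in such a run, although these lists have 28, 18 and 40 runs elsewhere in the genome, with 7.38%, 7.55% and 3.72% of their intervals. The kappa window had none in any list. In proximal V there were 2 runs with 16 intervals and in distal V 5 runs with 61.

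The run from 116831743 to 116860888 was the fullest, with 24 intervals in 29146 bp. They covered 20.5% of that length, with a median gap of 670 bp and gaps as short as 5 bp. It also held 9 of the 18 Igh intervals with a score of at least 100, and 22 of its 24 intervals were in no other AH2 NBS1 list. AH2 NBS1 had 2 peaks in the span and input had 3. The run from 117030859 to 117076373 counted 20 intervals over 45515 bp, covering 9.33%, with a median gap of 1211 bp. Only 1 of the 20, at 117046844, was an AH2 NBS1 peak, and no input peak fell within the run. It held the R2K.Artm peak at 117041107 in one of its gaps.

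The third run lay in proximal V, from 114929549 to 114959001, with 11 intervals that covered 7.36% of 29453 bp. No interval of AH2 NBS1, R2K.Artm NBS1 or input was in its span. Its highest score was 132 and its median 58.7. The neighbouring run from 114889828 to 114902066 had 5 intervals, among them 1 AH2 NBS1 peak, 114897973 to 114898130, with the highest score of the run (111). The remaining runs were all in distal V: 116430569 to 116448789 with 5 intervals, 116748456 to 116766277 with 7 and 116786786 to 116811490 with 5. They were also the runs in which no score reached 100, and input peaks fell within each of them, 2, 2 and 3 in number.

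**Figure D3:**
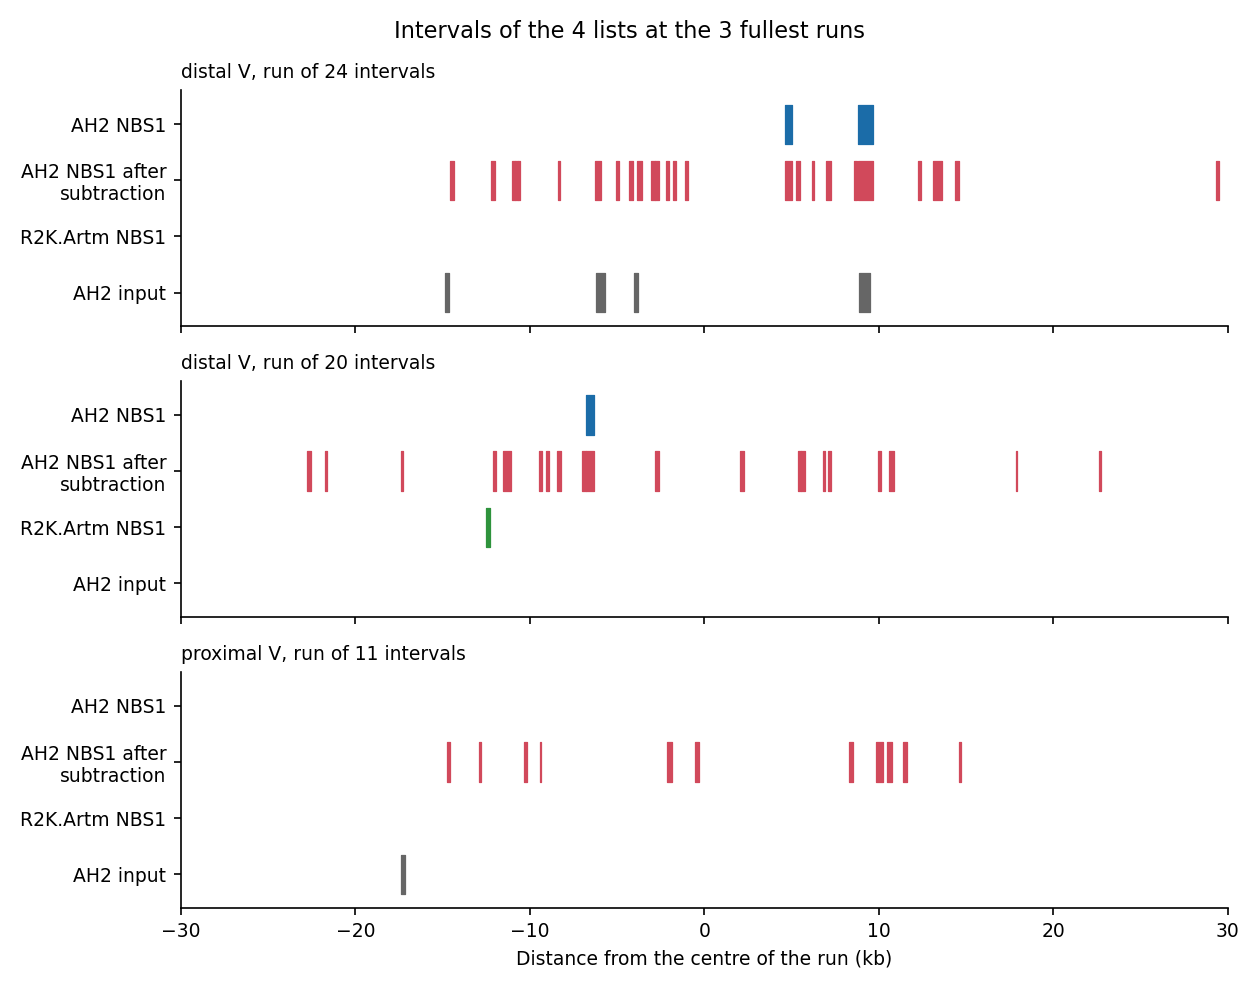
Bars show every interval of the 4 lists within 30 kb of the centre of the 3 fullest runs, drawn to scale along the distance in kb. In the run of 24 intervals there are 2 AH2 NBS1 peaks and 3 input peaks, and in the run of 20 there is 1 AH2 NBS1 and 1 R2K.Artm peak. The run of 11 holds no interval of another list within its span, but an input peak stands 2400 bp outside it.

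Spacing showed the same crowding without a rule for runs. The nearest other interval of the same list was a median of 1205 bp away for the subtracted list in Igh, 15374 bp for AH2 NBS1, 44505 bp for R2K.Artm NBS1 and 12134 bp for input. In the kappa window the medians were 82262, 55523, 321339 and 90816 bp for the same lists. Of the 105 subtracted Igh intervals, 49 had a neighbour under 1 kb away (46.7%), and for 13 it was under 100 bp away. In the whole subtracted list the share under 1 kb was 5.17%, or 77 intervals, which include the 49. AH2 NBS1 had none of 36 with a neighbour under 1 kb away, against 9.96% of its whole list. R2K.Artm NBS1 had 2 of 13 (15.4%), both in the J and D stretch, against 9.46%, and input had 4 of 68 (5.88%), against 7.19%.

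Igh intervals were wide. At least 200 bp wide were 36 of 105 subtracted intervals, 34.3% (25.9 to 43.8%), against 6.04% of the whole list (90 intervals, which include the 36). Among AH2 NBS1 peaks it was 10 of 36, 27.8% (15.8 to 44.0%), against 8.54%. For input it was 21 of 68, 30.9% (21.2 to 42.6%), against 18.7%, and for R2K.Artm NBS1 7 of 13, 53.8% (29.1 to 76.8%), against 18.9%. The interval of each of these shares lay above the whole-list value. The medians in Igh were 159 bp, 143 bp, 156 bp and 202 bp for subtracted, AH2 NBS1, input and R2K.Artm, and on the rest of chromosome 12 they were 115 bp, 116 bp, 133 bp and 147 bp. The kappa window had wide intervals in both AH2 NBS1 lists as well, with medians of 230 bp after subtraction and 196 bp before. So the width was not confined to Igh, nor to libraries made with the antibody.

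**Figure D4:**
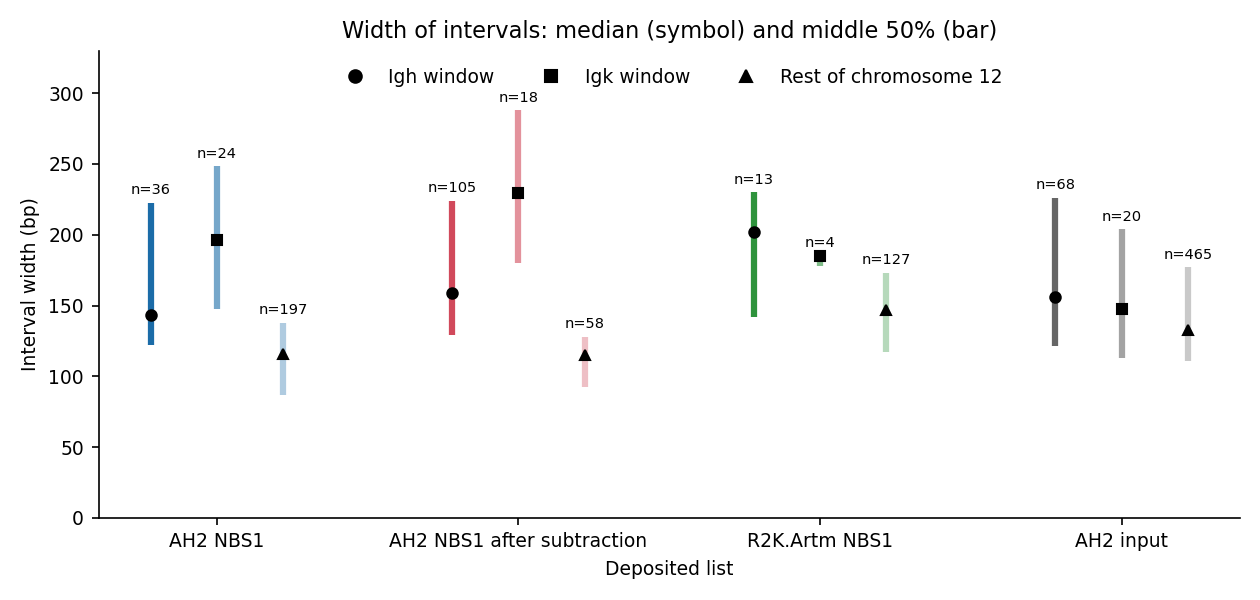
Symbols give the median width in bp and bars the middle 50% of intervals for the Igh window, the kappa window and the rest of chromosome 12, by list, with the number of intervals above each bar. In every list the Igh median lies above that of the rest of chromosome 12, for example 159 against 115 bp after subtraction and 156 against 133 bp in input.

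High scores followed the lists differently. A score of at least 100 was reached by 18 of the 105 subtracted intervals, against 4.03% of that list (60 intervals, which include the 18). In the kappa window 6 of 18 subtracted intervals reached it. Of the 18 in Igh, 14 (77.8%) were in dense runs, near the 73.3% of all 105. By sublocus 14 of them were in distal V, near the 79.0% of all 105, 3 in proximal V and 1 in the telomeric flank. In AH2 NBS1 3 of 36 reached it, against 25.7% of the list, in R2K.Artm NBS1 0 of 13, against 28.3%, and in input 8 of 68, against 12.4%. The highest input peaks of distal V were 116805344 to 116805478 (118), 116531544 to 116531682 (107) and 116996358 to 116996613 (103), of which the first overlapped a subtracted interval and the last an R2K.Artm peak. In proximal V the highest input peak, 114849516 to 114849782 (135), overlapped no other list, and neither did those at 115011602 (76.9) and 114926870 (76.8). The highest AH2 NBS1 peak of proximal V, 115347151 to 115347286 (88.0), stood alone among its neighbours and was retained after subtraction, with 69.4 there. The only R2K.Artm peak of proximal V was at 115398229 to 115398392 (61.4), 50942 bp from it.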

How the data were processed

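Bowtie, MACS 1.4.2 and the build mm9 are named, without their roles, per the submitters' processing notes. The Bowtie version, the treatment of reads that match several places, the control of each call and the way of subtraction were not given in the sources used here. Of the 4 deposited lists, 3 come from 1 library each and the subtracted one also draws on what was taken away, by its title R2K.Artm NBS1 and input. The value of an interval is the authors' peak score, at least 50 in every list, used only within its list. Samples were grouped by title.

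The members, subloci, rules and alternatives were chosen with earlier results of these data known. Intervals were joined in Python 3.11.15 (numpy 2.4.6, pandas 2.3.3), and figures were drawn with matplotlib 3.10.9. Shared means an overlap of at least 1 base, and an interval belongs to the sublocus of its midpoint. Intervals at 95% are Wilson or exact Poisson (scipy 1.17.1), and a count of 0 is limited by 3 counts of the total. Positions are 1-based. The join was tested on simulated data: of 1000 simulated intervals 300 were planted as overlaps and 300 were found. Named intervals are the 3 highest-scoring of each list per sublocus (all in the constant, J and D stretches of the NBS1 lists), the dense runs, the 5 highest retained peaks, R2K.Artm peaks that overlap another list and regions in 3 lists; others named were chosen after their values were seen. No mm9 sequence or annotation was used here.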

Additional observations from a re-analysis of the deposited data

How the results depend on the processing

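No paired analysis was possible because there is 1 library in each group, so no library could be left out either. For 12 results 52 alternatives were computed, of which 42 stayed within the 95% interval of the reported share or within 1.5 times the reported count. The distal V share stayed within it for all 4 lists under each alternative that gave a value. These moved the boundary with proximal V, shifted all inner edges by 50 kb, set a score of at least 100 or merged neighbours. The check was weak. Most moves of that boundary fell between 115347287 and 115906714, where the subtracted list has no interval that could change sides. The R2K.Artm interval ran from 23.2 to 70.9%, and the score limit left 3 AH2 NBS1 peaks. Without intervals that overlap input, chosen after seeing the data, the distal V share was 78.9% after subtraction and 68.0% for AH2 NBS1. At scores of at least 100 in both lists, 0 of 3 AH2 NBS1 peaks overlapped input or R2K.Artm (0% each), 0% of 8 input peaks overlapped AH2 NBS1, and 5.56% of 18 subtracted intervals overlapped input. No R2K.Artm Igh peak reaches this score, so its alternatives gave no value. Within 1 kb, 22.9% of subtracted intervals were near an input peak. The share of subtracted intervals that overlap AH2 NBS1 was 44.4% at scores of at least 100 and 15.6% without those that overlap input. Dense runs held 49 intervals with gaps under 5 kb, 0 among the intervals identical to AH2 NBS1 and, with neighbours under 1 kb merged (chosen after seeing the data), 33 merged intervals; the last 2 leave fewer intervals by construction. For the other changes the cause was not tested.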
